A study of Mus musculus with 58 samples.

Results

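Tmem164, Emb, Il1rapl2, Dnm3, Tmem123, Prss57, App, Gpd1l, Cnn3 and Lpp were the 10 genes, of 55376 counted in every RNA library, that stood among the strongest responders when the receptors Kdr and Bmpr1a were knocked down in aged mouse hematopoietic stem cells (HSCs). Each of the 10 ranked within the first 12 of all genes by p-value in the Kdr knockdown or in the double knockdown, so they were chosen by their knockdown values, which are described here without a test. What was not used to choose them, namely the 6 diet groups and the chromatin of diet HSCs, was tested.

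The study asked how caloric restriction (CR) acts on HSCs during aging and measured RNA in 34 libraries, 22 of them from HSCs sorted straight from male C57BL/6 mice and 12 from HSCs recovered after transplantation. The old mice were 24 to 26 months of age and had been fed ad libitum for life (OAL, 4 libraries), restricted by 40% from young adulthood onwards (OCR, 4) or restricted and then refed ad libitum for 4 weeks (OCRRF, 2). The young mice, restricted or sampled from 3 to 4 months of age, were fed ad libitum (YAL, 4), restricted for a short time with 3 weeks at the full 40% (YCR, 4) or restricted and then refed (YCRRF, 4). The labels give all of these as wild type. For the knockdowns, HSCs of aged mice were transduced with a GFP vector carrying a Kdr shRNA (4 libraries) or a GFP scramble (2), or with the Kdr shRNA together with a second vector carrying Bmpr1a shRNA1 (2) or shRNA2 (2), or with both scrambles (2). About 500 cultured cells were transplanted into lethally irradiated young female recipients of the CD45.1 strain together with CD45.1 myeloid progenitors, and donor CD45.2 cells of the stem cell gate were sorted from the recipients. All 12 transplanted libraries, scrambles included, therefore shared culture, transduction and transplantation, every knockdown arm carried the same Kdr shRNA, and no arm had Bmpr1a shRNA alone. Diet and transplanted cells also differed in gate, RNA extraction and sequencer, and levels are compared only within each set. The study counts the diet libraries as mice, but the labels tie no library to single or pooled animals, and the p-values measure the spread between these libraries.

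Kdr encodes VEGF receptor 2, the tyrosine kinase receptor through which VEGF signals in endothelial cells and their relatives, and Bmpr1a encodes a type I receptor for bone morphogenetic proteins, which signals through Smad transcription factors. HSCs are kept largely quiescent in the marrow by signals from the niche, and their surface proteins, membrane traffic and adhesion machinery are part of how they receive those signals. The 10 genes are spread over such roles. Il1rapl2, Emb, Tmem123 and App encode membrane proteins with an outer face, Dnm3 a GTPase that pinches off vesicles, Lpp and Cnn3 proteins of adhesion sites and the actin cytoskeleton, Tmem164 and Gpd1l proteins of lipid and glycerol metabolism, and Prss57 a granule protease of neutrophils.

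The old diet libraries held 23497989 to 34385179 counts, the young ones 11102898 to 36579392 and the transplanted ones 35657999 to 44780217. The number of genes with a count was 42071 to 46646 in old libraries but 22209 to 33496 in young ones, so age moved together with the complexity of the library. All 9 stem cell markers examined, among them Procr, Hlf and Mecom, were detected in all 34 libraries, whereas Cd3e, a T cell marker, was at 0 in 17 of them. Levels are given below as CPM, read counts scaled to a common library size of 1000000, after TMM scaling within the 22 diet or the 12 transplanted libraries. In bulk RNA, fewer cells of a type and less RNA per cell cannot be told apart.

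The targeted receptors were low in these cells. Kdr was at 6.04 and 6.07 CPM in both GFP scramble libraries and at 1.93, 2.21, 3.28 and 2.03 CPM in the Kdr knockdown libraries. It was at 3.97 and 4.62 CPM in the double scramble and at 1.24 and 0.555 CPM with shRNA1 and 1.6 and 1.35 CPM with shRNA2. Every library that carried the Kdr shRNA lay under both of its scrambles. The log2 fold change of Kdr was -1.35 (SE 0.251) in the Kdr knockdown and -1.86 (SE 0.373) in the double knockdown, and with edgeR's quasi-likelihood test and Benjamini-Hochberg adjustment over all genes neither passed the threshold of 0.05 (adjusted p = 0.247 and 0.272).

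Bmpr1a was at 5.21 and 4.43 CPM in the double scramble. With shRNA2 it was at 2.22 and 0.595 CPM. With shRNA1 it was at 0.656 CPM in replicate 2 but at 4.44 CPM in replicate 1, so the library labelled shRNA1 replicate 1 stood at the scramble level of the gene its shRNA targets. The log2 fold change of Bmpr1a over all 4 double knockdown libraries was -1.29 (SE 0.717, edgeR adjusted p = 0.602), and it was -2.05 without that library. In the Kdr arm, where Bmpr1a was not targeted, it ran from 1.67 to 7.96 CPM in the knockdown and was at 8.29 and 4.37 CPM in the scramble.

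**Figure D1:**
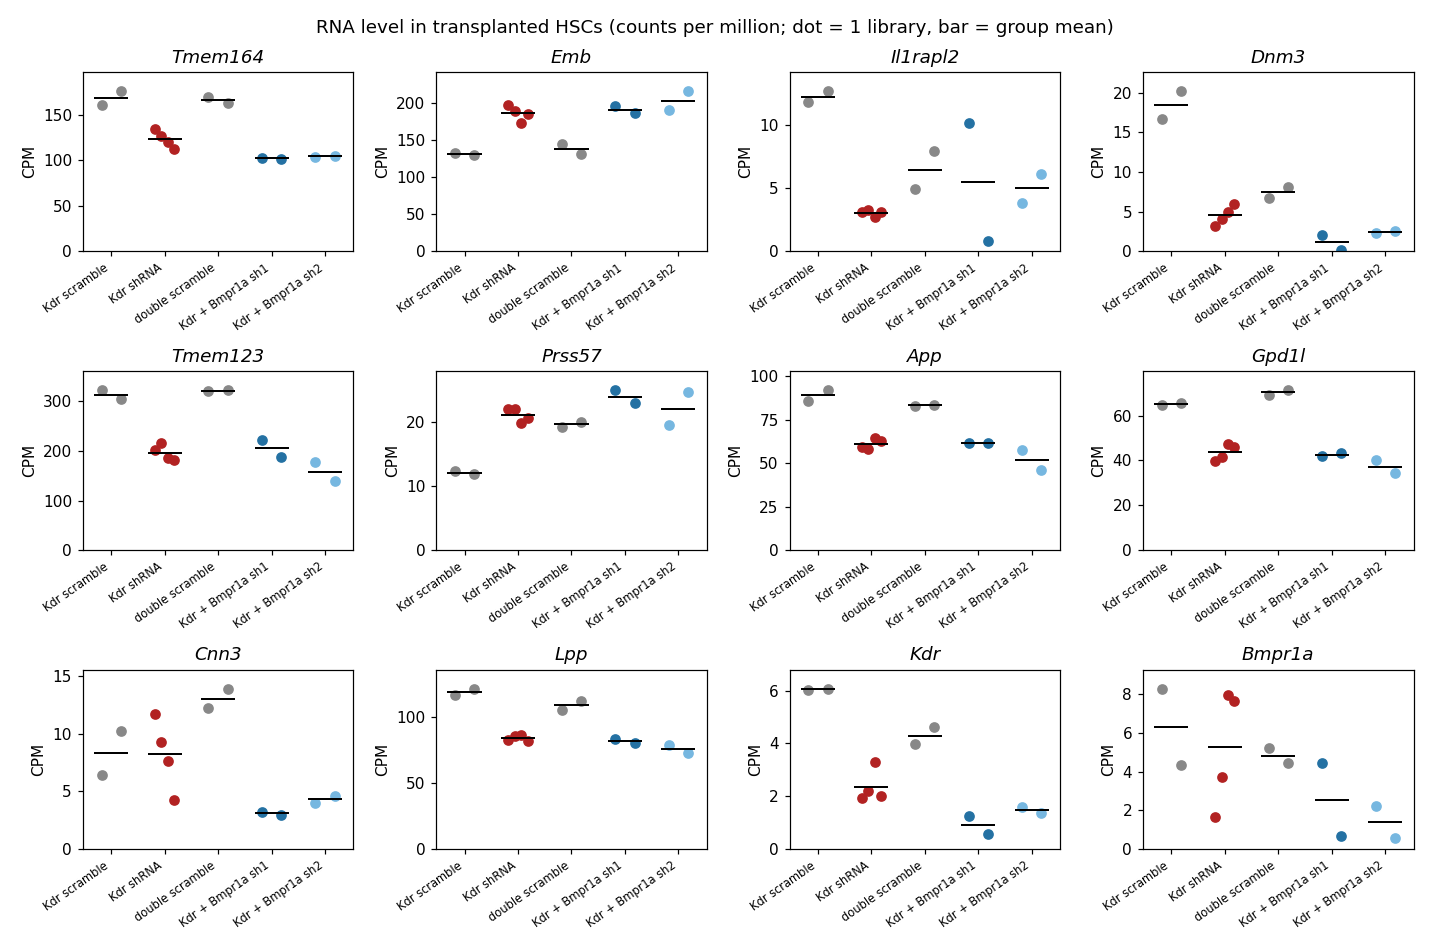
Each panel plots the level of 1 gene (y axis, CPM from 0) in the 12 transplanted libraries, with 1 dot per library and a bar at the group mean, over the GFP scramble, the Kdr shRNA, the double scramble and the double knockdown with Bmpr1a shRNA1 (sh1) or shRNA2 (sh2). Tmem123 lies at 303 CPM or more in all 4 scramble libraries and at 221 CPM or less in all 8 knockdown libraries, while Cnn3 lies at 2.93 to 4.6 CPM in the 4 libraries with a Bmpr1a shRNA and at 4.27 to 11.7 CPM with the Kdr shRNA alone.

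Among the 10 genes, 2 were higher and 7 lower in the Kdr knockdown, with a fold above 1.2 and no overlap between the groups, where over all genes 4.66% and 7.66% were. In the double knockdown 1 was higher and 7 lower (4.87% and 7.15% of all genes), with shRNA1 alone 2 and 7 (10.2% and 14.6%) and with shRNA2 alone 1 and 7 (10.2% and 13%). These counts describe genes that were chosen for these contrasts. The median log2 fold change of the 10 genes was -0.52 in the Kdr and -0.62 in the double knockdown, against -0.0023 and -0.00054 over all genes tested.

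Tmem123 (chr9:7764041-7794333, plus strand; this and the following gene positions are GENCODE genes on GRCm38) encodes porimin, a mucin-like protein of the cell surface. It was at 322 and 303 CPM in the GFP scramble and at 202, 216, 185 and 181 CPM in the Kdr knockdown. It was at 319 and 322 CPM in the double scramble, at 221 and 188 CPM with shRNA1 and at 177 and 139 CPM with shRNA2. All knockdown libraries lay below all scrambles, with log2 fold changes of -0.67 for Kdr, -0.65 for shRNA1 and -1.02 for shRNA2. Per kilobase of exon Tmem123 was the highest of the 10 genes, at a mean of 74.4 CPM per kb in transplanted and 70.7 CPM per kb in diet HSCs.

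App (chr16:84949685-85173766, minus strand) encodes the amyloid precursor protein, a transmembrane protein cut by secretases. It was at 85.9 and 92.1 CPM in the GFP scramble and at 59.4, 58.4, 64.3 and 62.6 CPM in the Kdr knockdown. In the other arm the double scramble libraries were at 83.1 and 83.6 CPM, those with shRNA1 at 61.9 and 61.7 CPM and those with shRNA2 at 57.5 and 46.1 CPM. The scrambles of both arms were alike and no knockdown library reached them, with log2 fold changes of -0.54, -0.43 and -0.69 for Kdr, shRNA1 and shRNA2.

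Emb (chr13:117208536-117274415, plus strand) encodes embigin, an immunoglobulin-family partner of monocarboxylate transporters, and was one of the 2 genes that were higher. It was at 132 and 130 CPM in the GFP scramble and at 197, 189, 173 and 185 CPM in the Kdr knockdown. It was at 145 and 131 CPM in the double scramble, 196 and 186 CPM with shRNA1 and 190 and 216 CPM with shRNA2. All 8 knockdown libraries lay above all 4 scrambles, and the log2 fold change was 0.50, 0.47 and 0.55 for Kdr, shRNA1 and shRNA2.

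Il1rapl2 (chrX:137570608-138846946, plus strand), an orphan receptor of the interleukin 1 receptor family, separated the arms. It was at 11.8 and 12.7 CPM in the GFP scramble and at 3.12, 3.25, 2.76 and 3.13 CPM in the Kdr knockdown, a log2 fold change of -2.0 with little spread on either side. In the double arm the groups overlapped, with 4.92 and 7.97 CPM in the scramble, 10.2 and 0.808 CPM with shRNA1 and 3.87 and 6.17 CPM with shRNA2. The double scramble itself lay below the GFP scramble, so the scrambles also separated the arms. The 10.2 CPM belonged to the library labelled shRNA1 replicate 1. The double knockdown log2 fold change was -0.30, and -0.84 without that library, and the shRNA1 value alone moved from -0.24 to -2.99 without replicate 1 and to 0.66 without replicate 2.

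Dnm3 (chr1:161982453-162478034, minus strand) encodes dynamin 3, a GTPase of membrane scission. It was at 16.7 and 20.2 CPM in the GFP scramble and at 3.25, 4.04, 4.95 and 5.97 CPM in the Kdr knockdown. In the double arm it was at 6.79 and 8.17 CPM in the scramble, at 2.13 and 0.202 CPM with shRNA1 and at 2.32 and 2.57 CPM with shRNA2. It was lower in every knockdown library than in either scramble of its arm, although the double scramble itself lay well below the GFP scramble. The log2 fold changes were -2.02, -2.69 and -1.61 for Kdr, shRNA1 and shRNA2, and the shRNA1 value ran from -5.18 without replicate 1 to -1.81 without replicate 2.

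Lpp (chr16:24393507-24992578, plus strand), a LIM domain protein of focal adhesions related to zyxin, was at 116 and 121 CPM in the GFP scramble and at 82.5, 85.4, 86.5 and 81.8 CPM in the Kdr knockdown. In the double arm it was at 105 and 112 CPM in the scramble, 83.4 and 80.0 CPM with shRNA1 and 78.8 and 72.2 CPM with shRNA2. No knockdown library reached the scrambles of its arm, with log2 fold changes of -0.49, -0.41 and -0.52 for Kdr, shRNA1 and shRNA2.

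Cnn3 (chr3:121426497-121458207, plus strand), an acidic calponin that binds actin, was the gene whose knockdown values parted the arms in the other direction. It was at 6.41 and 10.2 CPM in the GFP scramble and at 11.7, 9.27, 7.62 and 4.27 CPM in the Kdr knockdown, which overlapped (log2 fold change -0.019). In the double arm it was at 12.2 and 13.9 CPM in the scramble, at 3.26 and 2.93 CPM with shRNA1 and at 4.04 and 4.6 CPM with shRNA2. All 4 libraries with a Bmpr1a shRNA, the library labelled shRNA1 replicate 1 included, lay below both scrambles, with log2 fold changes of -2.07 and -1.59. The double scramble itself lay above the GFP scramble.

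Tmem164 (chrX:142681406-142843494, plus strand), an acyltransferase of ether phospholipids, was at 161 and 176 CPM in the GFP scramble and at 134, 127, 120 and 113 CPM in the Kdr knockdown. In the double arm it was at 170 and 163 CPM in the scramble, 103 and 102 CPM with shRNA1 and 104 and 105 CPM with shRNA2. The 4 double knockdown libraries lay within 3 CPM of each other, and the log2 fold changes were -0.45, -0.70 and -0.67 for Kdr, shRNA1 and shRNA2. Gpd1l (chr9:114899341-114933987, minus strand), which resembles glycerol-3-phosphate dehydrogenase 1, was at 64.7 and 65.4 CPM in the GFP scramble and at 39.6, 41.5, 47.5 and 46.0 CPM in the Kdr knockdown. Its levels in the double arm were 69.2 and 71.4 CPM in the scramble, 42.1 and 43.2 CPM with shRNA1 and 40.0 and 34.3 CPM with shRNA2, and its log2 fold changes were -0.58, -0.72 and -0.92.

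Prss57 (chr10:79781474-79790961, minus strand), neutrophil serine protease 4, was higher in the Kdr knockdown, with 12.3 and 11.8 CPM in the GFP scramble and 21.9, 22.0, 19.7 and 20.5 CPM in the knockdown (log2 fold change 0.81). In the double arm it was at 19.2 and 20.0 CPM in the scramble, 24.9 and 22.8 CPM with shRNA1 and 19.4 and 24.6 CPM with shRNA2, so shRNA2 overlapped the scramble (0.29 and 0.16). The double scramble lay near the Kdr knockdown level and not near the GFP scramble. Prss57 shares 40.7% of its exon length with Fstl3, a gene on the opposite strand, and since the use of strand in the counting is not stated, reads of both cannot be told apart. Fstl3 itself had a log2 fold change of 0.69 in the Kdr knockdown (edgeR adjusted p = 0.55). Cnn3 shares 17.7% and Emb 9.93% of exon length with a gene on the opposite strand, and each of the other 7 less than 5%, or none.

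**Figure D2:**
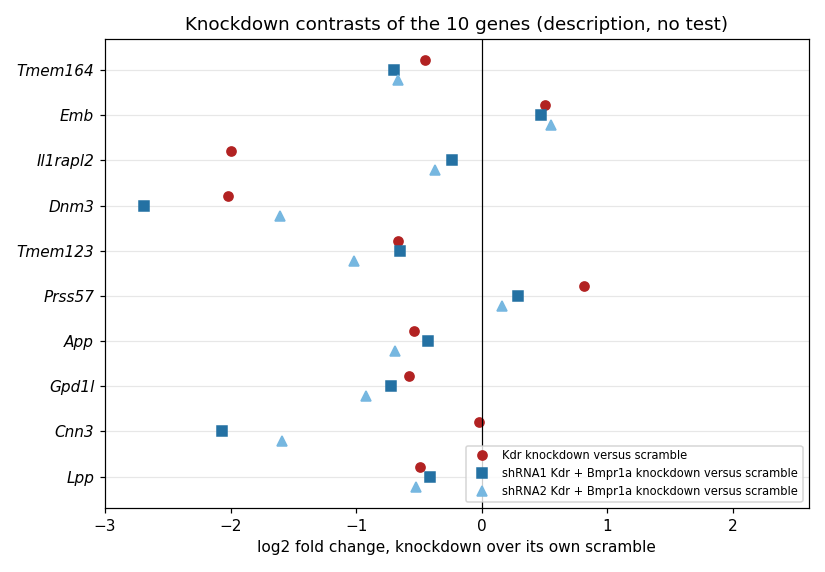
Log2 fold change (x axis) of each of the 10 genes (y axis) in the Kdr knockdown over the GFP scramble (circles) and in the double knockdown with Bmpr1a shRNA1 (squares) or shRNA2 (triangles) over the double scramble, from edgeR fits and with no test. Dnm3 lies at -1.61 or lower in all 3 contrasts, Il1rapl2 lies at -2.0 for Kdr alone and at -0.24 and -0.37 with a Bmpr1a shRNA, and Cnn3 at -0.019 for Kdr alone and at -2.07 and -1.59 with a Bmpr1a shRNA.

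Markers of cell types were examined in the same libraries. The summed level of 9 stem cell markers was 3310 to 3510 CPM in the GFP scramble and 2720 to 3120 CPM in the Kdr knockdown, and that of 6 megakaryocyte and platelet markers 463 to 507 and 371 to 406 CPM. The granulocyte and monocyte list, with which Prss57 shares its best known cell type, ran from 807 to 2620 CPM in the GFP scramble and from 1240 to 2670 CPM in the knockdown, which overlapped, and its members S100a8 and Ngp were above 0 in every transplanted library. The lymphocyte list was at 2.28 and 2.48 CPM in the GFP scramble and at 23.7, 20.7, 10.7 and 5.03 CPM in the Kdr knockdown, without overlap, with Cd3e at 0 in 9 of the transplanted libraries. The genes of the neutrophil lineage listed as relatives of Prss57 had a median log2 fold change of 3.88 in the Kdr knockdown. In the double knockdown, which carried the same Kdr shRNA, their median was -1.78, with -2.4 for shRNA1 and -1.36 for shRNA2. None of these lists had a gene past the edgeR threshold in the Kdr knockdown. With both vectors the granulocyte and monocyte list was at 1410 to 5090 CPM in the scramble, at 696 to 1340 CPM with shRNA1, under both scrambles, and at 1780 to 3260 CPM with shRNA2. The stem cell list was at 2890 to 2930 CPM in the double scramble, and at 2590 to 2920 and 2590 to 3000 CPM with the shRNAs, and the lymphocyte list at 3.91 to 9.79, 6.51 to 7.93 and 2.79 to 5.52 CPM, all overlapping. Of the Y-linked genes, Ddx3y was at 50.2 CPM in shRNA2 replicate 2 and at 106 CPM or more in the other 11 transplanted libraries. In shRNA2 replicate 2 Eif2s3y was at 112 CPM, Kdm5d at 58.3 CPM and Uty at 78.4 CPM. Over all transplanted libraries they ran from 112 to 131, 40.9 to 58.3 and 78.4 to 105 CPM. Xist, which female recipient cells would carry, was at 2.48 to 11.1 CPM in the transplanted and at 1.28 to 12.1 CPM in the diet libraries. The part of any of these in the values of the 10 genes was not tested.

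Both Bmpr1a shRNAs were also set against each other, in 1 fit with the double scramble. The rank of Tmem164, Cnn3, Gpd1l and Emb in the double knockdown rested on these same libraries and on their spread, so the values of the 10 genes are again a description. By edgeR 0 of the 10 genes and 0 of 20072 in the fit (0%) passed an adjusted p below 0.05 with a fold above 1.2, and at an unadjusted p below 0.05 the counts were 1 and 1990, while DESeq2 called 392 genes. Tmem123 was at 177 and 139 CPM with shRNA2 and at 221 and 188 CPM with shRNA1, a log2 fold change of -0.37. For Cnn3, given above, it was 0.48. For Dnm3 it was 1.08, with the shRNA1 libraries at 2.13 and 0.202 CPM and the shRNA2 libraries at 2.32 and 2.57 CPM.

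The diet groups were then compared. In OCR against OAL, which asks what lifelong restriction changed in old HSCs, 0 of the 10 genes passed the edgeR threshold, where 5.57% of all 27150 genes did. At an unadjusted p below 0.05 there were 5 of the 10 and 4387 of all genes, and DESeq2 called 1 of the 10, Prss57, and 1917 of all genes. Both knockdown targets were themselves lower under restriction. Kdr was at 41.9, 45.3, 39.8 and 41.0 CPM in OAL and at 13.2, 16.7, 20.1 and 25.2 CPM in OCR, without overlap (log2 fold change -1.14, SE 0.134, edgeR adjusted p = 7.8e-07). Bmpr1a was at 43.5, 39.8, 40.7 and 26.8 CPM in OAL and at 21.7, 22.2, 21.7 and 22.4 CPM in OCR (-0.76, SE 0.119, adjusted p = 6.58e-05). Over the 10 genes the median difference was -0.13 on the log2 scale, against 0.023 over all genes, with 4 above 0 and 6 below. Of all genes that passed, 45.6% were higher in OCR, and 56.2% with scaling on genes of at least 5 CPM.

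Prss57 was at 4.71, 3.52, 3.98 and 4.96 CPM in OAL and at 8.45, 6.84, 6.01 and 4.56 CPM in OCR. Only OCR replicate 4 lay among the OAL libraries, and the log2 fold change was 0.60 (SE 0.192, 95% interval 0.21 to 1.0, edgeR adjusted p = 0.0657). With DESeq2 it was 0.61 (adjusted p = 0.0218), and in edgeR without OCR replicate 4 it was 0.74 (adjusted p = 0.0168). Of the 6 genes of the neutrophil lineage listed as its relatives, 5 could be tested and 1, Prtn3 (proteinase 3), passed, lower in OCR (-0.41, SE 0.0886, adjusted p = 0.00342). The other 4 had positive log2 fold changes, as Prss57 did, and did not pass, with Ctsg (cathepsin G) at 1.85 (adjusted p = 0.149), Mpo (myeloperoxidase) at 1.31 (adjusted p = 0.0911), Elane (neutrophil elastase) at 0.86 and Ms4a3 at 0.65.

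For the other genes the values were close. Emb was at 97.6, 95, 94.8 and 104 CPM in OAL and at 83.4, 89.4, 80.3 and 78.2 CPM in OCR, without overlap (-0.22, SE 0.0806, edgeR adjusted p = 0.119). Il1rapl2 was at 29.6, 32.4, 27.7 and 28.7 CPM in OAL and at 19.6, 24.6, 27.1 and 25.3 CPM in OCR, also without overlap (-0.28, SE 0.109, adjusted p = 0.168). Gpd1l was at 42.7, 43.0, 44.5 and 40.6 CPM in OAL and at 50.7, 52.4, 45.0 and 46.9 CPM in OCR (0.21, SE 0.0891, adjusted p = 0.223). With a fold above 1.2 and no overlap there was 1 of the 10 lower, Il1rapl2, and 0 higher, where 4.32% and 3.89% of all genes were. Tmem123 was at 222, 219, 211 and 185 CPM in OAL and at 246, 278, 208 and 232 CPM in OCR, which overlapped. Its log2 fold change was 0.22 (SE 0.0899, 95% interval 0.036 to 0.40, edgeR adjusted p = 0.192). The intervals of the remaining genes, which were Tmem164, Dnm3, App, Cnn3 and Lpp, included 0 and lay between -0.51 and 0.57.

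Of 41 genes listed as relatives or partners of the members, 40 could be tested in this contrast, 6 were lower and 0 higher. The 4 with the lowest adjusted p were Emcn, the endothelial sialomucin endomucin (-0.83, SE 0.119, edgeR adjusted p = 1.97e-05), Prtn3, and Wtip and Trip6, LIM proteins of the zyxin family like Lpp (-0.51 and -0.29, adjusted p = 0.0124 and 0.029). Neither of 2 calponins, 3 dynamin family members nor 7 listed interleukin 1 receptor relatives passed.

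**Figure D3:**
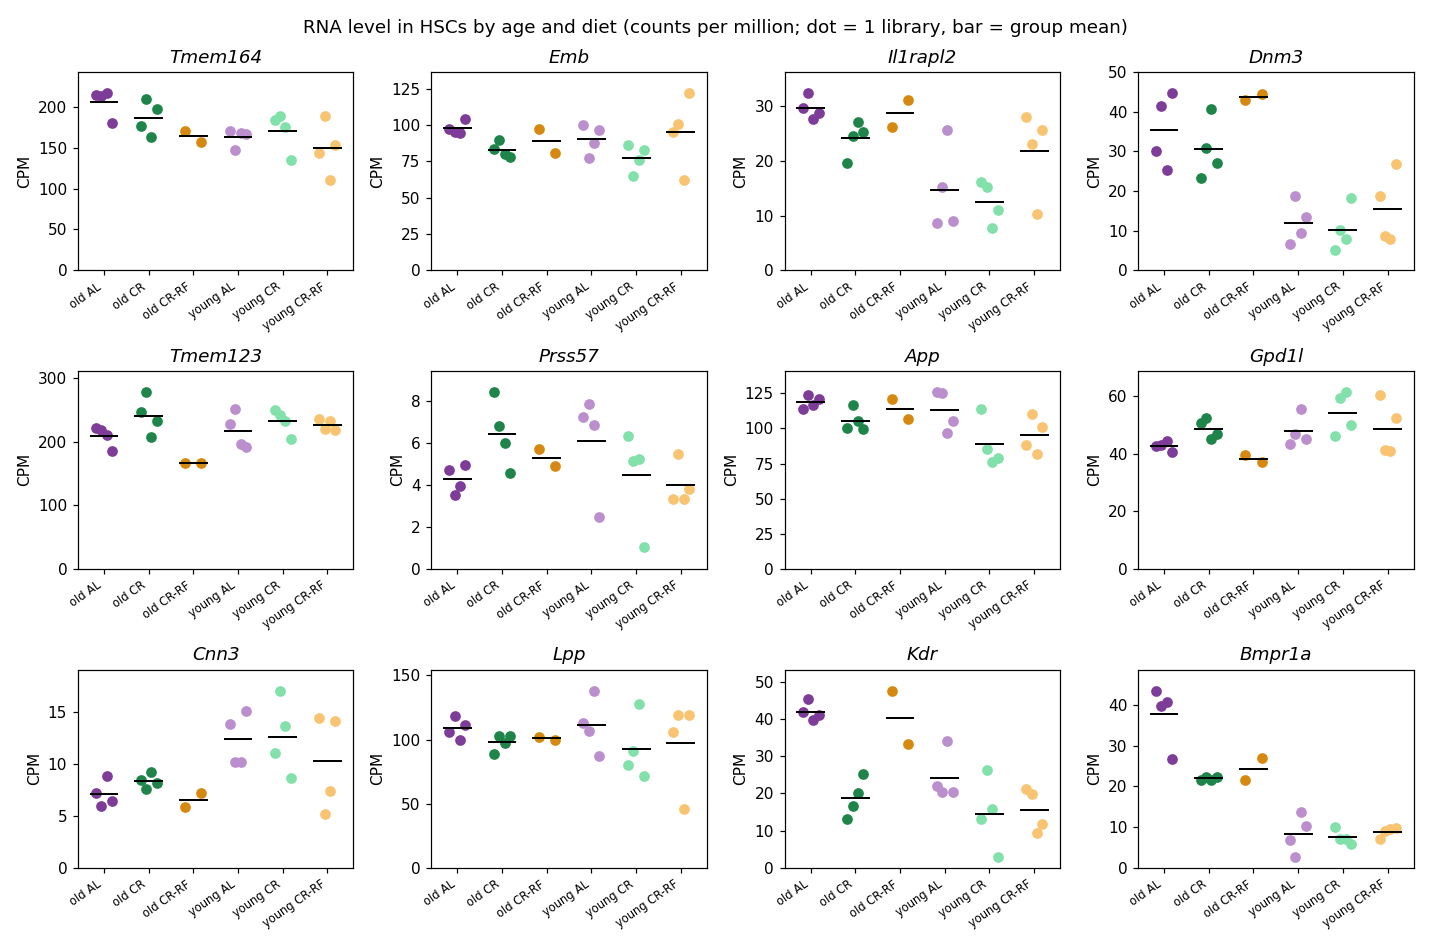
Each panel plots the level of 1 gene (y axis, CPM from 0) in the 22 diet libraries, with 1 dot per library and a bar at the group mean, over old and young HSCs under ad libitum feeding (AL), restriction (CR) and refeeding (CR-RF). Dnm3 lies at 23.3 to 44.7 CPM in the 10 old and at 5 to 26.8 CPM in the 12 young libraries, and both old refed libraries hold Tmem123 at 166 to 167 CPM, under every other library.

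Refeeding after lifelong restriction was compared on the 2 OCRRF libraries. Against OCR, 1 of the 10 genes passed, Tmem123, where 3.41% of all 32577 genes did, with 2.71% lower. Tmem123 was at 246, 278, 208 and 232 CPM in OCR and at 167 and 166 CPM in OCRRF. The log2 fold change was -0.60 (SE 0.126, 95% interval -0.85 to -0.34, edgeR adjusted p = 0.00294), and without either of the OCRRF libraries the adjusted p was 0.0983 or 0.0987. The all-gene median of this contrast was 0.11 and moved to 0.24 when the scaling used only genes of at least 5 CPM, with the share of higher calls at 20.4% and 37.3%, and Tmem123 passed under that scaling too.

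Dnm3 was at 42.9 and 44.5 CPM in OCRRF against 23.3, 30.9, 40.7 and 27.0 CPM in OCR (0.46, SE 0.151, edgeR adjusted p = 0.0837). Gpd1l was at 39.7 and 37.0 CPM against 50.7, 52.4, 45.0 and 46.9 CPM (-0.40, SE 0.131, adjusted p = 0.083), and Cnn3 was at 5.84 and 7.20 CPM against 8.39, 7.59, 9.17 and 8.18 CPM (-0.42, SE 0.205, adjusted p = 0.298). In none of these did the groups overlap, and none passed the threshold. Over all genes 14.5% were higher and 9.68% lower with a fold above 1.2 and no overlap. Kdr rose to 47.6 and 33.2 CPM on refeeding (1.05, SE 0.173, adjusted p = 8.53e-05), while Bmpr1a was at 21.7 and 27.1 CPM (0.089, 95% interval -0.21 to 0.38). Of the 40 relatives tested, Emcn was higher (0.57, SE 0.157, adjusted p = 0.0329), and Slc16a1, a monocarboxylate transporter of the family embigin partners with, and Cnn2, a second calponin, were lower (-0.58 and -0.52, adjusted p = 0.00718 and 0.00775). The summed megakaryocyte and platelet list was 653 to 856 CPM in OCR and 814 to 943 CPM in OCRRF, with 1 of its 5 tested genes higher and 3 lower. The part of these cells in the values of Tmem123 and Dnm3 was not tested.

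Against OAL, 2 of the 10 genes passed, both lower in OCRRF, where 4.14% of all 31816 genes did and 2.48% were lower. Tmem164 was at 215, 214, 217 and 180 CPM in OAL and at 171 and 157 CPM in OCRRF (-0.35, SE 0.0814, edgeR adjusted p = 0.0333). Tmem123 was at 222, 219, 211 and 185 CPM in OAL (-0.35, SE 0.0779, adjusted p = 0.0297). Both calls rested on the scaling. The all-gene median was 0.12, and 0.26 when scaling used genes of at least 5 CPM, which moved the share of higher calls from 40.1% to 93.3% and both genes to -0.20 (adjusted p = 0.133 and 0.117). Without OAL replicate 1, 2 or 3 or either OCRRF library, neither passed. The stem cell marker list was at 4070 to 4640 CPM in OAL and 3580 to 3650 CPM in OCRRF, with 3 of 9 genes lower, and its part was not tested. Of the relatives, Mpo was higher (2.52, SE 0.322, adjusted p = 0.00213) and Cnn2, Zyx (zyxin) and Nptn (neuroplastin, like Emb a partner of monocarboxylate transporters) were lower (-0.32, -0.32 and -0.30).

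**Figure D4:**
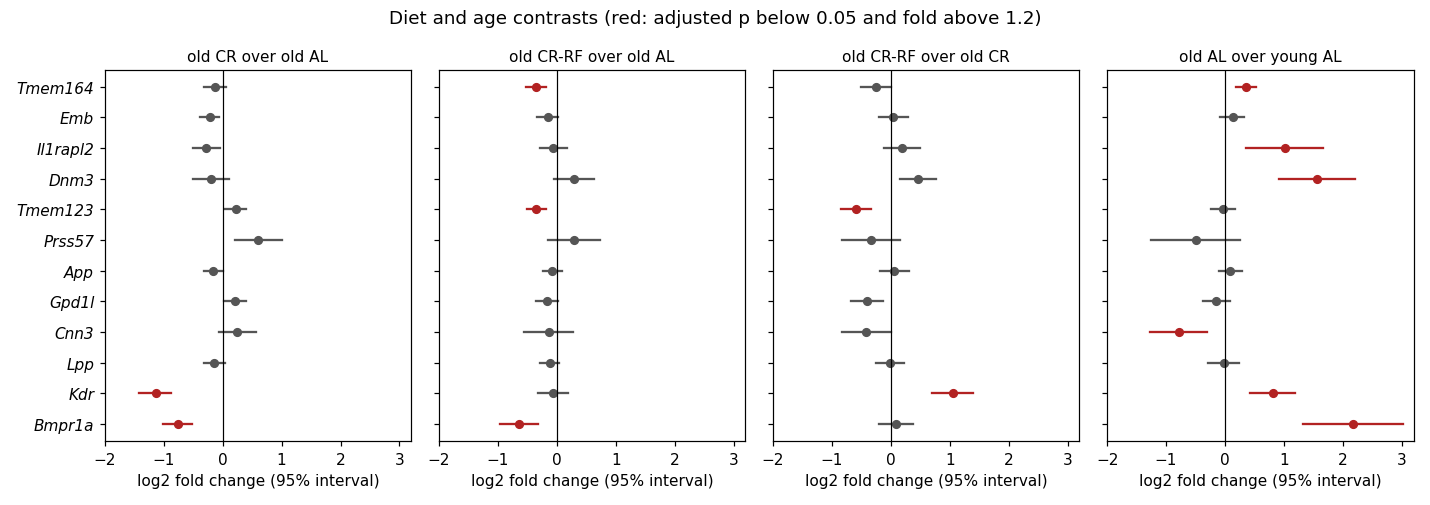
Log2 fold change with its 95% interval (x axis) of the 10 genes, Kdr and Bmpr1a (y axis) in 4 contrasts of diet and age, in red where the edgeR adjusted p was below 0.05 and the fold above 1.2. Kdr (-1.14) and Bmpr1a (-0.76) are red in restriction against ad libitum feeding in old HSCs and none of the 10 genes is, while 4 of the 10 are red in old against young.

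In young HSCs no member passed in any contrast. By edgeR 0 of the 10 genes passed in YCR against YAL (0.364% of all genes), 0 in YCRRF against YAL (0%) and 0 in YCRRF against YCR (0.0102%), and at an unadjusted p below 0.05 the counts were 1, 0 and 0 of the 10 and 1735, 714 and 1420 of all genes. App had that 1, at 114, 85.5, 76.5 and 79.0 CPM in YCR against 126, 125, 96.5 and 105 CPM in YAL (-0.34, SE 0.143, edgeR adjusted p = 0.49). The young libraries were more widely spread than the old ones. For Lpp, at group means of 92.8 to 111 CPM, the SD was 21.1 to 35.0 CPM in the young groups and 1.24 to 7.52 CPM in the old ones. Prss57 ran from 1.07 to 6.37 CPM in YCR and from 2.47 to 7.87 CPM in YAL, and the interval of its log2 fold change was -1.61 to 0.72. The test of the old response to restriction against the young response called 0 of the 10 genes (0.0318% of all genes) and 0 at an unadjusted p below 0.05, with Prss57 farthest from 0 at 1.06 (SE 0.599, adjusted p = 0.683).

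Old and young ad libitum HSCs differed in 4 of the 10 genes, where 14.8% of all 23525 genes did, 6.89% higher and 7.93% lower with age. Dnm3 was at 30.2, 41.4, 25.2 and 44.7 CPM in OAL and at 6.56, 18.6, 9.47 and 13.4 CPM in YAL, higher in all old libraries (1.57, SE 0.295, edgeR adjusted p = 0.00752). Il1rapl2 was at 8.68, 15.3, 25.6 and 9.00 CPM in YAL, all under the lowest OAL library at 27.7 CPM (1.02, SE 0.298, adjusted p = 0.0423). Tmem164 was at 170, 147, 168 and 167 CPM in YAL, below the OAL libraries given above (0.35, SE 0.0813, adjusted p = 0.016). Cnn3 was the 1 lower gene, at 7.18, 5.92, 8.79 and 6.45 CPM in OAL and at 13.8, 10.2, 10.2 and 15.1 CPM in YAL (-0.78, SE 0.22, adjusted p = 0.0362). None of these groups overlapped, as for 15.3% of all genes that were higher and 9.69% that were lower with a fold above 1.2.

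The age calls were not equally firm. Dnm3 passed under each of the 7 other settings and without each library in turn. Tmem164 missed the threshold without OAL replicate 1, 2 or 3, Il1rapl2 without any 1 OAL library or YAL replicate 1, 2 or 4, and Cnn3 without OAL replicate 1, 2 or 4 or YAL replicate 1 or 4, with adjusted p from 0.0535 to 0.11, so that 1 to 4 of the 10 genes passed. The all-gene median was 0.045, and 0.16 with scaling on genes of at least 5 CPM, where Cnn3 was at -0.67 (adjusted p = 0.0743) and the share of higher calls was 70.5% in place of 46.5%. The megakaryocyte and platelet list summed to 757 to 1000 CPM in OAL and 515 to 642 CPM in YAL, with Vwf and Itga2b past the threshold, and the lymphocyte list to 4.47 to 5.51 and 25.9 to 93.3 CPM, and their part was not tested. Kdr and Bmpr1a were higher with age as well (0.81 and 2.18, adjusted p = 0.0115 and 0.00606). Of 40 relatives tested 5 were higher and 5 lower, the 4 with the lowest adjusted p being Apbb2, an adaptor that binds the tail of App (2.18), Zyx (-0.53), Prtn3 (0.74) and Adam10, a secretase that cuts App (0.30). Of the other listed genes of the neutrophil lineage, Mpo (-6.2, adjusted p = 0.0182) and Ctsg (-4.68, adjusted p = 0.0464) were lower with age, though their groups overlapped. The 5 tested had a median of -4.68.

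The genes whose levels followed each member most closely were taken by the pooled correlation over 22 diet libraries among 12327 genes, and r is given within the 10 old and the 12 young libraries, since the ages stood apart. Tmem164 followed Efl1, a GTPase of ribosome assembly, with r of 0.847 and 0.937, and Lpp followed Zer1, a ubiquitin ligase subunit, with 0.799 and 0.897. Dnm3 followed Selp, the platelet and endothelial P-selectin, with 0.627 and 0.608. Tmem123 followed Pdia4, a disulfide isomerase of the endoplasmic reticulum, with 0.884 and 0.65, and Gpd1l followed Aaas, a nuclear pore protein, with 0.974 and 0.707. For Prss57 the closest gene, Zfp940, had r of -0.243 in old and 0.865 in young libraries, and Litaf had 0.343 and 0.771. Such a gap was not particular to Prss57. It was seen for Spryd4 with Cnn3 (-0.569 and 0.849) and for Zfp57 with Il1rapl2 (-0.111 and 0.784). Mab21l2 with Dnm3 (0.245 and 0.693) and Ttbk2 with Tmem164 (0.243 and 0.914) also had a lower r in old libraries. Old libraries had more genes with a count than young ones, depth varied widely among the young ones, and these values are descriptions.

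The chromatin of old HSCs was examined at the same genes. PU.1, encoded by Spi1, is an ETS transcription factor of HSCs and myeloid cells, and its peaks were called by the authors on each of 6 libraries, 2 each of OAL, OCR and OCRRF, with 2262 to 5464 peaks a library. Replicates 1 and 2 carry different label sets and are not treated as matched. Within 10 kb of the gene, 3, 3, 5, 4, 4 and 3 of the 10 genes had a peak in OAL 1 and 2, OCR 1 and 2 and OCRRF 1 and 2. Over all coding genes the share was 12.0%, 11.2%, 19.7%, 14.7%, 11.0% and 9.14%, and gene length, which widens the window and is large for Dnm3, Il1rapl2 and App, was not matched. Tmem164, Prss57, Gpd1l, Cnn3 and Lpp had none in any library.

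The strongest of these peaks lay near Emb, 9.79 kb past its end in intergenic sequence, with a fold enrichment of 17.5 to 23.7 in all 6 libraries, which placed it at percentile 96.2 to 99.2 of the peaks of its library. Dnm3 held 2 peaks in introns, both in all 6 libraries, at 6.4 to 10.8 fold and at 9.88 to 16.3 fold. An intron of Il1rapl2 held 1 in 5 libraries (6.38 to 14.8 fold), an intron of App 1 in 2 libraries (6.14 and 8.13 fold, OCR 1 and OAL 1) and the sequence 7.89 kb upstream of Tmem123 1 in 3 libraries (7.24 to 10.7 fold, both OCR and OCRRF 1). Kdr itself had a peak 2.66 kb upstream of its start in all 6 libraries (8.53 to 13.0 fold). The Emb peak was higher in both OCR libraries (23.7 and 21.9 fold) than in both OAL libraries (18.1 and 17.5 fold), and so was that of Kdr (13.0 and 12.1 against 8.53 and 10.0 fold). The paper reports a genome-wide trend of more PU.1 binding in OCR than in OAL. The share of all peaks higher in both OCR libraries was not computed, so this order cannot be called particular to these peaks. Both Dnm3 peaks overlapped between OCR and OAL and were highest in an OAL library, at 10.8 and 16.3 fold. With 2 libraries against 2 an exact permutation test (two-sided) could not go below a p of 0.333.

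The sequence at each peak was also searched for short letter runs. The 101 bases around the median summit are printed on the gene's strand, 5′ to 3′ in GRCm38 (mm10). That strand is minus for Dnm3, App and Kdr and plus for Emb, Il1rapl2 and Tmem123. GAGGAA or GGAAGT and their reverse complements TTCCTC or ACTTCC are in capitals. These letters belong to the core PU.1 binds and were chosen after the windows were seen.
Emb, chr13:117284152-117284252: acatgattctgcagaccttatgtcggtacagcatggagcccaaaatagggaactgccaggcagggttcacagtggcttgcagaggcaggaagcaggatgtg
Dnm3 second intronic peak, chr1:162040639-162040739: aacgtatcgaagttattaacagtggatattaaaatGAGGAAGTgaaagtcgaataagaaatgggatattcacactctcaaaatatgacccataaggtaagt
Dnm3 first intronic peak, chr1:161998912-161999012: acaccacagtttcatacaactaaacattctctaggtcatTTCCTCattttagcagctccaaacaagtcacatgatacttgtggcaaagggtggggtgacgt
Il1rapl2, chrX:137688157-137688257: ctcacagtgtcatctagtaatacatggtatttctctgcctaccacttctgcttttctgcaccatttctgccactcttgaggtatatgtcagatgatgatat
Tmem123, chr9:7756097-7756197: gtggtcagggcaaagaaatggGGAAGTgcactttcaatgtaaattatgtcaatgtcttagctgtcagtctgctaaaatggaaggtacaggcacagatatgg
App, chr16:85072000-85072100: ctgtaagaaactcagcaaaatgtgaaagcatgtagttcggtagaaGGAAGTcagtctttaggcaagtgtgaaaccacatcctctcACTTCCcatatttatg
Kdr, chr5:75981072-75981172: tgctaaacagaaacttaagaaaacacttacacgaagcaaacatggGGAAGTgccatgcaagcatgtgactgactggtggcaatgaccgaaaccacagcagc

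Of all peak summits, 77.6% to 80.6% a library had one of these letter runs within the 101 bases, against 12.9% to 13.8% of windows shifted by 1 kb. In the second Dnm3 window GAGGAA and GGAAGT overlap as 1 run, and the App window holds a run on each strand. The windows of Emb, the strongest peak, and of Il1rapl2 hold neither run. The Emb window does hold GGAA, which is part of both GAGGAA and GGAAGT, in gggaac and in aggaag. The lack of a run therefore does not mean the lack of a PU.1 core.

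**Figure D5:**
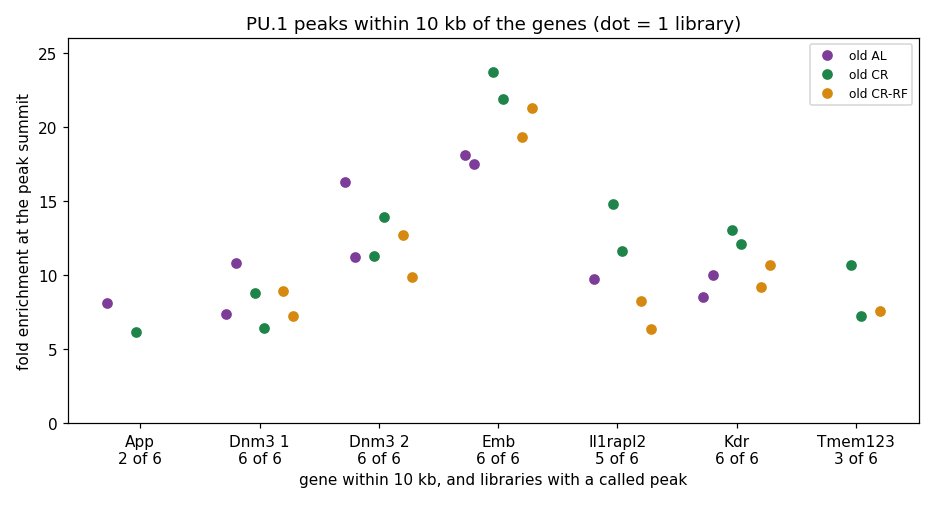
Fold enrichment at the summit (y axis) of each PU.1 peak within 10 kb of the genes and of Kdr (x axis), with 1 dot per library in which the authors called it, in purple for OAL, green for OCR and orange for OCRRF. The Emb peak is called in 6 of 6 libraries at 17.5 to 23.7 fold, above each other peak shown.

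Chromatin accessibility (ATAC-seq) was compared between 4 OCR and 2 OCRRF libraries of 15721335 to 19558148 counts in consensus peaks. The 10 genes had 14 peaks within 1 kb of a transcription start site (TSS), at least 1 each. By edgeR 0 of their promoter peaks passed an adjusted p below 0.05 with a fold above 1.5 and a mean log2 CPM above 1.5, where 0.221% of 123372 peaks did, and 14439 peaks and 3 of the members' had an unadjusted p below 0.05. DESeq2 also called 0 of them. Tmem123 had the most open promoter of the 10, at 163, 165, 166 and 170 CPM in OCR and 172 and 169 CPM in OCRRF, a log2 fold change of OCR over OCRRF of -0.039 (95% interval -0.14 to 0.059), while its RNA was lower in OCRRF. The main Lpp promoter was at 18.5, 21.7, 20.1 and 22.3 CPM in OCR and 27.4 and 24.6 CPM in OCRRF, and it did not pass (OCR over OCRRF -0.34, SE 0.103, edgeR adjusted p = 0.13). The log2 fold change of Lpp RNA, taken the other way as OCRRF over OCR, was -0.014 (95% interval -0.25 to 0.23). Prss57 had only 2.71 to 4.25 CPM at its TSS. The PU.1 bound regions overlapped consensus peaks, with 35.6 to 44.7 CPM at the Emb region and 0.965 to 2.86 CPM at the Tmem123 region, and none differed past the threshold.

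Histone marks at the TSS were deposited as signal per base in 2 OCR libraries each, and ranks are given among 30009 windows per library. H3K4me3, a mark of active or poised promoters, stood at percentiles 96.0 and 97.9 at App, 93.1 and 91.2 at Emb and 92.5 and 91.6 at Tmem123. At Prss57 it was at percentiles 34.7 and 40.4. H3K27me3, the mark left by Polycomb, was at percentiles 94.2 and 93.8 at Cnn3 and 80.1 and 81.1 at Dnm3, and near the bottom at the first start of Tmem164, at percentiles 1.81 and 0.418. At these genes H3K4me3 was at percentiles 65.5 and 64.3 at Cnn3 and 86.7 and 88.1 at Dnm3. The OAL libraries of both marks were not used here, so diets were not compared.

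The Cnn3 promoter is shown because its H3K27me3 was the highest of the 10 genes, beside that of Tmem123, whose promoter had the most accessible peak. The 250 bases before the RefSeq start are printed on the gene's strand, which is plus for both, 5′ to 3′ in GRCm38, with CG pairs in capitals.
Cnn3, chr3:121426291-121426540: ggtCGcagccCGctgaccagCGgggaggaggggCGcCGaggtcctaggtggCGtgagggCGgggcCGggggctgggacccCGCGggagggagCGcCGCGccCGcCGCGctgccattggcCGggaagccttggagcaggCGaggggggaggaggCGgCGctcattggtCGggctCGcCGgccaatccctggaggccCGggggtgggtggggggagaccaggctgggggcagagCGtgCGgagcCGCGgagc
Tmem123, chr9:7763827-7764076: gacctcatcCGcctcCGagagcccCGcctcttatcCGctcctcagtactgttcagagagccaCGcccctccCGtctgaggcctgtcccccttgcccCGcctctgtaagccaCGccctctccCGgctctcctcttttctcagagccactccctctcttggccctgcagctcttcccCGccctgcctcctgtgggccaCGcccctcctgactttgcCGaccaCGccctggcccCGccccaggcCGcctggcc

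Cnn3 has 28 CG pairs there and Tmem123 15, against a median of 6 over 32851 RefSeq promoters, and 7.61% and 27.3% of promoters have at least as many. The table of RefSeq promoters used for these counts held 9 of the 10 genes, all but Prss57.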

How the data were processed

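The counts deposited by the authors came from reads trimmed with trim galore and cutadapt, mapped to mm10 with STAR and counted per GENCODE gene with featureCounts, and are raw counts with 1 library per file. The use of strand, of multi-mapping reads and of mates is not given in the sources used here, and 64.9% to 79.9% of the low counts in a library were even numbers, so a count need not be 1 fragment. The ATAC-seq values were counts per consensus peak deposited by the authors after BWA mapping, removal of duplicates and MACS peak calling over all replicates. The PU.1 peaks were deposited by the authors with what MACS2 gave each library on its own, namely a score, a ratio over local background (the fold enrichment) and -log10 values of p and q. The histone signal deposited by the authors was summed and averaged per base over the 750 bp (H3K4me3) or 2000 bp (H3K27me3) that follow each RefSeq TSS, on a scale that is not given. ATAC-seq and histone values of OAL were not used here.

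Counts were tested in edgeR 4.0.16 (R 4.3.3) with TMM scaling, filterByExpr and the quasi-likelihood test, fitted per comparison on its own groups over all genes, with Benjamini-Hochberg adjustment, and a gene was called at an adjusted p below 0.05 and a fold above 1.2. Intervals at 95% take the t distribution with the total degrees of freedom that edgeR gives each gene or peak. DESeq2 1.42.0, other scalings, other filters, a replicate block, 1 fit of all 6 diet groups and leaving out each library were alternatives. The method was tested on simulated counts. The lowest chi-square per degree of freedom between libraries of 1 group was 8.17 over 41 pairs, so no pair agreed within sampling noise. CPM and intervals are limited by the counts per library, and PU.1 and histone values carry no depth. The 10 genes and all lists were chosen with earlier results of these data known. The genes named are the 10, Kdr, Bmpr1a, 5 sex-linked genes, up to 4 called relatives a comparison by adjusted p and, for each of the 10, genes among the 3 of highest correlation. Markers of the stem cell gate and of other cell types were listed beside them, and Fstl3 and the letters searched at PU.1 peaks were chosen after values were seen. Columns of no sample numbered 0.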

Additional observations from a re-analysis of the deposited data

Results flagged for a closer look

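In 72 groups of 4 libraries (the 10 genes, Kdr and Bmpr1a in OAL, OCR, YAL, YCR, YCRRF and the Kdr knockdown), the highest and lowest library was set against the rest, and 3 groups held a library whose gap to the next was above 0.829 of the whole range. Chance gives such a gap in about 1 of 20 groups, which would be 3.6 of these 72. Tmem164 was lowest in OAL replicate 4, at 180 CPM against 214 to 217 CPM in the other 3 libraries. Tmem164 was also lowest in YAL replicate 2, at 147 CPM against 167 to 170 CPM. Kdr was highest in YAL replicate 3, at 34.0 CPM against 20.3 to 22.0 CPM.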

How the results depend on the processing

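The counts of the 10 genes that passed were recomputed under each alternative. OCR against OAL gave 0, but 1 with DESeq2 (Prss57) and 0 to 1 when a library was left out (Tmem123 without OCR replicate 3, Prss57 without OCR replicate 4). OCRRF against OAL gave 2, but 0 with TMM from genes of at least 5 CPM, 0 in 1 fit of all 6 diet groups and 0 to 2 when a library was left out. OCRRF against OCR gave 1, but 2 with DESeq2 (Tmem123 and Gpd1l), 2 with no filter and 2 with at least 10 counts in every library (both Tmem123 and Dnm3), 0 in 1 fit of all 6 diet groups and 0 to 3 when a library was left out. OAL against YAL gave 4, but 3 with TMM from genes of at least 5 CPM and 3 with at least 10 counts in every library (both without Cnn3), 2 in 1 fit of all 6 diet groups and 1 to 4 when a library was left out. shRNA2 against shRNA1 gave 0, but 1 with no filter (Tmem123) and 0 to 1 when a library was left out (Dnm3 without shRNA1 replicate 1). The causes were not tested. The 3 young contrasts, the old against young response and the promoter peaks gave 0 under each alternative run.

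Libraries were not treated as paired by replicate number, and in no comparison did each pair of same-numbered libraries deviate together with r above 0.1. Between the Bmpr1a shRNAs r was 0.0967, and in the Kdr arm it was 0.0404 and 0.216. Where both groups hold 2 libraries the pairs give the same r by construction, so this check cannot exclude pairing. With the replicate block, OCRRF against OCR gave 3 of the 10 genes (Dnm3, Tmem123 and Gpd1l), OAL against YAL gave 3, since Cnn3 was at -0.78 with an adjusted p of 0.0898, and the block changed no other count of the 10. The numbers of the shRNA2 libraries were also crossed, an alternative chosen after seeing the data, with 8 of the 10 genes past the fold without overlap, but overlap does not depend on the numbers, so this count says nothing of stability.

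Counts over all genes moved further. DESeq2 called 3835 genes in OCRRF against OAL (edgeR 1316), 2297 in OCRRF against OCR (1110), 452 in YCR against YAL (68), 268 in YCRRF against YCR (2) and 182 for the old against young response (9). The fit of all 6 diet groups called 212 in OCR against OAL (1511), 0 in OCRRF against OAL, 64 in OCRRF against OCR and 538 in YCRRF against YCR. With the block the count was 3437 in OCRRF against OCR and 1651 in OAL against YAL (3486). With no filter it was 6671 in OAL against YAL and 988 for shRNA2 against shRNA1 (0). For ATAC-seq it was 762 with the block, 648 by adjusted p alone and 98 to 368 with a library left out (273). Only 2 OCRRF libraries and 2 libraries of each scramble and shRNA limit the precision.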
